A study of Mus musculus with 7 samples.

Results

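The miRNA cluster described here holds the hairpins of miR-322, miR-503, miR-351, miR-542 and miR-450, which lie next to each other on the mouse X chromosome. Its members were chosen by name, as every listed mature miRNA whose name begins with miR-322-, miR-503-, miR-351-, miR-542-, miR-450a or miR-450b. The table writes them with the species prefix, as in mmu-miR-450a-5p and mmu-miR-450b-5p, and the prefix is left out below. The rule uses no measured value. In all, 8 of the 331 listed mature miRNAs met this rule: miR-322-5p, miR-322-3p, miR-351-5p, miR-351-3p, miR-542-5p, miR-542-3p, miR-450a-5p and miR-450b-5p. No name beginning with miR-503- was found in the table, and miR-503 is therefore not analysed here.

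Small RNAs were sequenced from testes of CD1 mice, which are outbred, with 1 library for each of 7 conditions. T6 and T10 are uncultured testes of 6.5 and 10.5 dpp (days post partum), written as 6 and 10 dpp in the age label. Explants of the same ages were kept for 12 days at 34 °C on agarose at the gas-liquid interface, in air with 5% CO2. T6-12K and T10-12K received KSR (KnockOut Serum Replacement), and T6-12A and T10-12A received AlbuMAX I, a lipid-rich bovine serum albumin. TAD is uncultured testis of adult mice of 2 months. The labels give neither a genotype other than the strain nor the number of animals behind a library. Since no condition has a replicate library, no difference was tested against the variation between animals, and every interval given is a 95% interval for counting error only. In bulk tissue, fewer cells of a type and less RNA per cell cannot be told apart.

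A miRNA is cut from a hairpin precursor that can give a mature strand from its left arm (5p) and from its right arm (3p). Bases 2 to 8, the seed, are the main contact with target mRNAs, so miRNAs of equal seed can share targets. miR-322-5p has the seed of the miR-15 and miR-16 family, known for lowering cyclins and other cell cycle proteins. miR-351-5p has the seed of miR-125a and miR-125b, relatives of the worm miRNA lin-4. The cluster is known for its part in cell cycle exit during muscle differentiation. In male meiosis the X chromosome is largely silenced, and another X-linked group of miRNAs is known for its strong expression in testis.

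The 8 mature strands are printed 5′ to 3′ with the seed in capitals, because seed and arm are what set the members apart. All were matched to RefSeq sequences (assembly GRCm38.p6).
miR-322-5p: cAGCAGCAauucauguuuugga
miR-322-3p: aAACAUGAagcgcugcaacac
miR-351-5p: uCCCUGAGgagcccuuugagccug
miR-351-3p: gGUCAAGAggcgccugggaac
miR-542-5p: cUCGGGGAucaucaugucacga
miR-542-3p: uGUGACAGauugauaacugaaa
miR-450a-5p: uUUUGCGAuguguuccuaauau
miR-450b-5p: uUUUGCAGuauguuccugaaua
The 8 seeds all differ, those of miR-450a-5p and miR-450b-5p included, although these strands have the same base at 15 of 22 positions counted from the 5′ end.

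Listed miRNAs encoded elsewhere that have the seed of a member are shown for comparison, again with the seed in capitals. The first 5 have the seed of miR-322-5p and the last 2 that of miR-351-5p.
miR-16-5p: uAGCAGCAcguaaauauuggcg
miR-15a-5p: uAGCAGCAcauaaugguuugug
miR-15b-5p: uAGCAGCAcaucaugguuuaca
miR-195a-5p: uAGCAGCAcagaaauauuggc
miR-497a-5p: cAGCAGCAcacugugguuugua
miR-125a-5p: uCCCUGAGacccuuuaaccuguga
miR-125b-5p: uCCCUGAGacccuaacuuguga
Position by position from the 5′ end, miR-322-5p has 16 of 22 bases in common with miR-15b-5p, 15 of 22 with miR-15a-5p and miR-497a-5p, 12 of 22 with miR-16-5p and 11 of 21 with miR-195a-5p. miR-351-5p has 10 of 24 bases in common with miR-125a-5p and 10 of 22 with miR-125b-5p. How the authors counted a read that fits several miRNAs is not given in the sources used here.

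The hairpin of miR-322 is shown because both of its arms were among the more abundant members. It lies at chrX:53054255-53054349 of GRCm38, minus strand, and is 95 bases long, with the 5p and then the 3p strand in capitals.
Mir322: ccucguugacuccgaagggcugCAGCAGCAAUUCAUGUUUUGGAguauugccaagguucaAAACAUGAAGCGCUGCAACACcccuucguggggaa
The 7 annotated hairpins of the cluster span 6.35 kb, chrX:53047997-53054349, all on the minus strand, in the transcribed order Mir322, Mir503, Mir351, Mir542, Mir450-2, Mir450-1 and Mir450b. Mir322 and Mir503 are 200 bases apart, Mir503 and Mir351 630 bases, Mir351 and Mir542 3767 bases, and Mir542 and Mir450-2 1035 bases. The 3 Mir450 hairpins are 54 and 75 bases apart. In RefSeq the long non-coding RNA gene C430049B03Rik (X, 53053112 to 53057190, minus strand) covers 3 hairpins, Mir322, Mir503 and Mir351. In GENCODE mouse release 21 its gene model does not reach Mir322, and no hairpin overlaps a long non-coding RNA gene. miR-450a-5p has the same mature sequence from Mir450-1 and Mir450-2, so its reads cannot be assigned to either hairpin.

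Levels are given as CPM, reads scaled to a total of 1000000 on listed miRNAs. Reads were estimated by dividing the deposited values by the worth of 1 read in each library. The libraries held 13363593 reads (T6), 13397407 (T10), 9934580 (T6-12K), 10793767 (T6-12A), 7075528 (T10-12K), 8452588 (T10-12A) and 1628770 (TAD). TAD is the shallowest, with 64 of 331 miRNAs listed at 0 against 6 to 21 in the others. The lowest value above 0 was 5 reads, or 7 in T10, so that a 0 may stand for up to 4 reads. Where a ratio was needed, a 0 was set to 5 reads, which are 3.07 CPM in TAD and 0.373 to 0.707 CPM in the other libraries. Ratios against such a value are bounds only as far as the listing goes, since their intervals take the 5 reads as counted.

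Marker miRNAs of the cell types in testis were looked at first. All 4 markers of meiotic and haploid germ cells (miR-34b-5p, miR-34c-5p, miR-449a-5p and miR-449c-5p) were above 0 in every library, and their summed level was 72.7 CPM in T6, 162 in T10, 611 to 1950 in the 4 cultures and 25465 in TAD. Both Sertoli cell strands, miR-202-5p and miR-202-3p, summed to 93.7 CPM (T6-12K) to 234 CPM (T10), with 160 CPM in TAD. The 5 smooth muscle, myoid and mesenchymal markers summed to 106268 CPM in T6, 148102 in T10, 158388 to 213930 in the cultures and 259014 in TAD. That sum is nearly all miR-143-3p. The other 4, miR-145a-5p, miR-199a-3p, miR-199a-5p and miR-214-3p, were each lower in TAD and in all 4 cultures than in T6 and T10. The 2 endothelial strands of miR-126a summed to 124 to 249 CPM before and after culture and to 405 CPM in TAD. Of the 3 erythroid markers, miR-451a and miR-144-3p were at 0 in all 4 cultures, and the sum was 445 to 2554 CPM there, 1688 in T6, 1490 in T10 and 1109 in TAD. This erythroid sum was nearly all miR-486a-5p in every library. Of 4 leukocyte markers 2 were listed, with sums of 5.54 to 12.2 CPM before and after culture and 45.4 CPM in TAD. Of 3 striated muscle markers only miR-133a-3p was listed, at 2.60 to 30.4 CPM. The part of these cell types in the results on the cluster was not tested.

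The 8 members made up a small share of the miRNA reads and spanned a wide range of levels. Their summed level was 3266 CPM (T6) and 2799 (T10) uncultured, 973 (KSR) and 1408 (AlbuMAX I) in the 6.5 dpp cultures, 1648 (KSR) and 1850 (AlbuMAX I) in the 10.5 dpp cultures and 564 in adult testis. In CPM the prepuberal uncultured testes were highest, the adult testis lowest, and the 4 cultures lay between them. No neighbouring values in this order overlapped within counting error, the closest being T10-12A and T10-12K with a log2 ratio of 0.17 (0.13 to 0.20). The order depends on the scaling, and under another scaling given below the mean of the 10.5 dpp cultures lay above T10.

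miR-351-5p, with the seed of miR-125, was the most abundant member in every library. Its level was 2012 CPM (T6) and 1787 (T10) uncultured, 631 (KSR) and 702 (AlbuMAX I) in the 6.5 dpp cultures, 1114 (KSR) and 1261 (AlbuMAX I) in the 10.5 dpp cultures and 307 in adult testis. In CPM both uncultured prepuberal libraries lay above all cultures, the 10.5 dpp cultures above the 6.5 dpp cultures, and TAD below all others. In T6 it ranked 31 of 331 by reads and in TAD 80. Its opposite strand, miR-351-3p, was the scarcest member, with 6.44 CPM (T6) and 5.60 CPM (T10) before culture, 1.39 CPM in T6-12A, 2.25 CPM in T10-12A, 1.13 CPM in T10-12K, and 0 in both T6-12K and TAD. The 0 in T6-12K, at a limit of 0.503 CPM, was below the cultures with a value. The limit in TAD, 3.07 CPM, lies above every culture and gives no order there.

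miR-322-5p, the member of the miR-15 and miR-16 family, was second in every library. It was at 768 CPM (T6) and 549 (T10) uncultured, 228 (KSR) and 505 (AlbuMAX I) in the 6.5 dpp cultures, 359 (KSR) and 421 (AlbuMAX I) in the 10.5 dpp cultures and 188 in adult testis. T6-12A came close to T10, with a log2 ratio of T10 to T6-12A of 0.12 (0.07 to 0.17), while T6-12K came close to TAD. The opposite strand, miR-322-3p, was at 277 CPM (T6) and 241 (T10) uncultured, 51.2 (KSR) and 78.8 (AlbuMAX I) in the 6.5 dpp cultures, 66.6 (KSR) and 62.9 (AlbuMAX I) in the 10.5 dpp cultures and 52.2 in adult testis. Here the 4 cultures lay with the adult testis and far below T6 and T10. T6-12K and TAD did not differ beyond counting error (log2 ratio 0.03, -0.30 to 0.36).

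miR-542-3p was at 134 CPM (T6) and 143 (T10) uncultured, 39.1 (KSR) and 81.3 (AlbuMAX I) in the 6.5 dpp cultures, 78.6 (KSR) and 68.7 (AlbuMAX I) in the 10.5 dpp cultures and 16.0 in adult testis. TAD was lowest with 26 reads. The pair T6 and T10 and the pair T10-12K and T6-12A did not differ beyond counting error. miR-542-5p was at 6.36 CPM (T6) and 9.18 (T10) uncultured, 3.42 (KSR) and 6.21 (AlbuMAX I) in the 6.5 dpp cultures, 2.97 (KSR) and 4.38 (AlbuMAX I) in the 10.5 dpp cultures and 0 in adult testis. Its values in T6-12A and T6 did not differ beyond counting error (log2 ratio 0.04, -0.43 to 0.50), and its 0 in TAD lies at a limit above T10-12K.

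miR-450b-5p was at 32.5 CPM (T6) and 28.7 (T10) uncultured, 12.4 (KSR) and 16.7 (AlbuMAX I) in the 6.5 dpp cultures, 12.4 (KSR) and 18.7 (AlbuMAX I) in the 10.5 dpp cultures and 0 in adult testis. miR-450a-5p was at 29.7 CPM (T6) and 35.3 (T10) uncultured, 7.15 (KSR) and 17.1 (AlbuMAX I) in the 6.5 dpp cultures, 13.7 (KSR) and 11 (AlbuMAX I) in the 10.5 dpp cultures and 0 in adult testis. Both were close to each other before culture and listed at 0 in the adult testis, where the limit of 3.07 CPM is below every culture. The reads of miR-450a-5p per read of miR-450b-5p were 0.915 (T6) and 1.23 (T10) before culture, 0.577 (KSR) and 1.03 (AlbuMAX I) in the 6.5 dpp cultures, and 1.10 (KSR) and 0.589 (AlbuMAX I) in the 10.5 dpp cultures, with no order by age or medium.

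**Figure D1:**
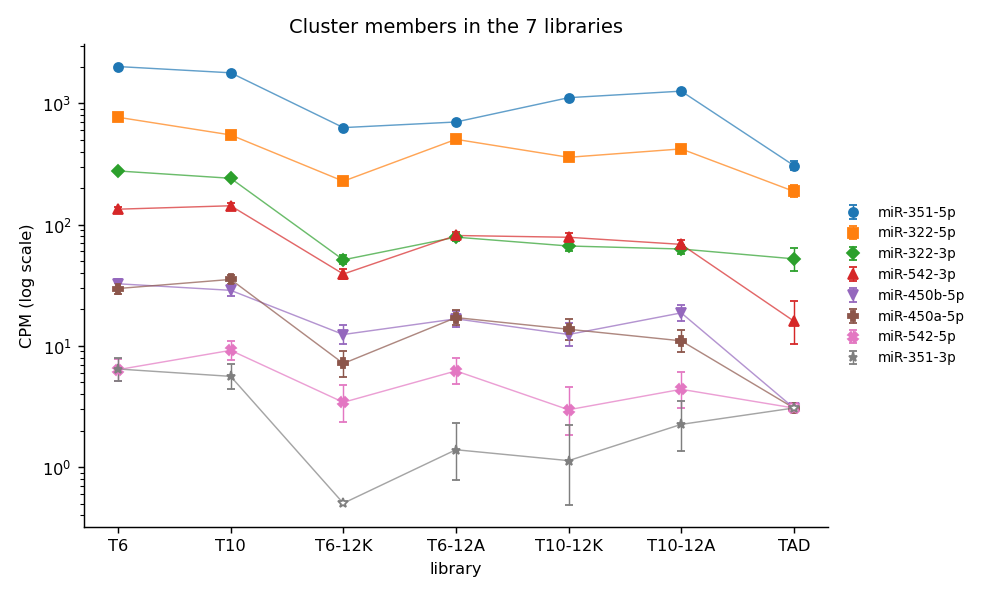
Level of each of the 8 members (CPM, log scale) in the 7 libraries, with 95% counting intervals as bars. Open symbols are values of 0 drawn at 5 reads, 3.07 CPM in TAD and 0.503 CPM in T6-12K, and lines join the values of 1 member. miR-351-5p and miR-322-5p are the top lines in every library, and the 4 cultures lie below T6 and T10 for each member. For miR-542-5p, T6-12A and T6 do not differ beyond counting error, and miR-351-3p is listed through its reads in T6 and T10.

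The members were correlated across libraries, with no values for other pairs of miRNAs to set beside this. The correlation of log2(CPM + 1) between members over the 7 libraries, which share scaling and depth, was 0.600 to 0.981 over the 28 pairs, and 0.778 to 0.937 over the pairs of the 4 members above 0 in every library. Members listed at 0 in TAD, the shallowest library, have that value in common, and it enters their correlations. Of the 224 other miRNAs that averaged 10 CPM or more, those whose pattern was most like that of the summed members were miR-99b-5p (r 0.966), miR-151-3p (0.958), miR-199a-5p (0.931), miR-484 (0.930) and miR-152-3p (0.927). None of these is encoded on the X chromosome. miR-99b-5p was at 33854 CPM in T6, 27437 in T10, 16596 to 23567 in the cultures and 7579 in TAD. miR-199a-5p, one of the mesenchymal markers above, was at 405 CPM in T6, 323 in T10, 157 to 229 in the cultures and 91.5 in TAD. Both have the order of the summed cluster in coarse form, with the cultures between the prepuberal and the adult testis.

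The first comparison was between the 2 prepuberal ages. The summed level was slightly lower in T10 than in T6, with a log2 ratio of -0.22 (-0.24 to -0.20). No member reached a 2-fold difference, where 4.23% of all listed miRNAs were lower by 2-fold and 10.9% higher. In counts these were 14 lower and 36 higher of 331, which became 26 and 27 with TMM (trimmed mean of M-values) scaling and 6 and 40 in the values as deposited. The lowest ratio was that of miR-322-5p, at -0.49 (-0.53 to -0.44), and the highest that of miR-542-5p, at 0.53. The median log2 ratio was -0.17 for the members and -0.06 for all listed miRNAs.

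The second comparison set the adult testis against both prepuberal testes. The summed level was 5.38-fold lower in TAD than in the mean of T6 and T10, with a log2 ratio of -2.43 (-2.52 to -2.33). All 8 members were lower, and 7 of 8 were lower by 2-fold against T6 and against T10, beside 30.2% of all listed miRNAs. The remaining member, miR-351-3p, is listed through its reads in T6 and T10, so its direction carries no weight. None was higher by 2-fold, beside 17.2% of all. Over all listed miRNAs this was 100 lower and 57 higher, against 157 and 30 in the values as deposited, where the summed ratio was -3.13. With median-of-ratios scaling 6 of 8 were lower by 2-fold. The median log2 ratio of the members was -2.47, with miR-351-3p included and values of 0 at their bound, and that of all listed miRNAs was -0.43.

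Among the abundant members, miR-542-3p was 8.68-fold lower in TAD (log2 ratio -3.12, -3.67 to -2.56), miR-351-5p 6.19-fold (-2.63, -2.76 to -2.50), miR-322-3p 4.96-fold (-2.31, -2.62 to -2.0) and miR-322-5p 3.49-fold (-1.80, -1.97 to -1.64). miR-322-5p was thus the least lowered of the 4 members that were above 0 in TAD. The other 4 members were at 0 in TAD, and their ratios are given with this 0 set to 5 reads. miR-450a-5p was then 10.6-fold lower (-3.40, -4.67 to -2.14) and miR-450b-5p 9.97-fold (-3.32, -4.59 to -2.05). miR-542-5p was 2.53-fold lower (-1.34, -2.62 to -0.06), and against T6 alone its interval took in 0 (-1.05, -2.35 to 0.25). miR-351-3p was 1.96-fold lower, not beyond counting error (-0.97, -2.25 to 0.31). It remained short of the 2-fold rule at the depth of TAD. The summed germ cell markers stood at 25465 CPM in the same library.

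The third comparison set the cultures against the testes they came from. All 8 members were lower in all 4 cultures than in both T6 and T10, which held for 57.7% of all listed miRNAs. For miR-351-3p this was partly set by its listing. For miR-542-5p, T6-12A was not below T6 beyond counting error (log2 ratio -0.04, -0.50 to 0.43). These directions are in CPM, and with TMM scaling 1 of 8 members at 6.5 dpp and 2 of 8 at 10.5 dpp had a mean over both cultures above that of the uncultured testis. At 6.5 dpp this was miR-542-5p. At 10.5 dpp these were miR-351-5p and miR-322-5p, the 2 most abundant members. At 6.5 dpp the summed level was 2.74-fold lower in the mean of T6-12K and T6-12A than in T6 (log2 ratio -1.46, -1.48 to -1.43), and with median-of-ratios and TMM scaling the log2 ratio was -0.77 and -0.71. In both media, 3 of 8 members were lower by 2-fold, beside 32.0% of all listed miRNAs, and none was higher, beside 8.16%. These were miR-351-5p, 3.02-fold lower, miR-322-3p, 4.26-fold lower, and miR-351-3p, at least 6.80-fold lower. The last is listed through its reads before culture, so its place in this count carries no weight. miR-351-5p was no longer past 2-fold in both media with median-of-ratios (-0.87) or TMM scaling (-0.81). Over all listed miRNAs 106 were lower and 27 higher, against 50 and 46 with median-of-ratios and 47 and 50 with TMM scaling.

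At 10.5 dpp the summed level was 1.60-fold lower in the cultures than in T10 (log2 ratio -0.68, -0.70 to -0.66), and with TMM scaling it was 0.09, on the other side of 0. In both media, 4 of 8 members were lower by 2-fold, beside 32.3% of all listed miRNAs, and none was higher, beside 7.85%. These were miR-322-3p, 3.72-fold lower, miR-351-3p, 3.31-fold, miR-450a-5p, 2.86-fold, and miR-542-5p, 2.50-fold. Again miR-351-3p is listed through its reads before culture, so its place in this count carries no weight. With median-of-ratios or TMM scaling 1 member was past 2-fold. Over all listed miRNAs 107 were lower and 26 higher, against 62 and 41 with median-of-ratios and 54 and 55 with TMM scaling.

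Most listed miRNAs were lower in the cultures in CPM, and the members were mostly below the median of all, 7 of 8 at 6.5 dpp and 6 of 8 at 10.5 dpp. These counts and the member medians below include miR-351-3p. It is listed through its reads before culture, so its place in them carries no weight. At 6.5 dpp the median log2 ratio was -1.23 for the members and -0.93 for all, and at 10.5 dpp -1.14 and -0.76. miR-322-3p was the member that was past 2-fold in all 4 cultures with the most reads behind it.

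**Figure D2:**
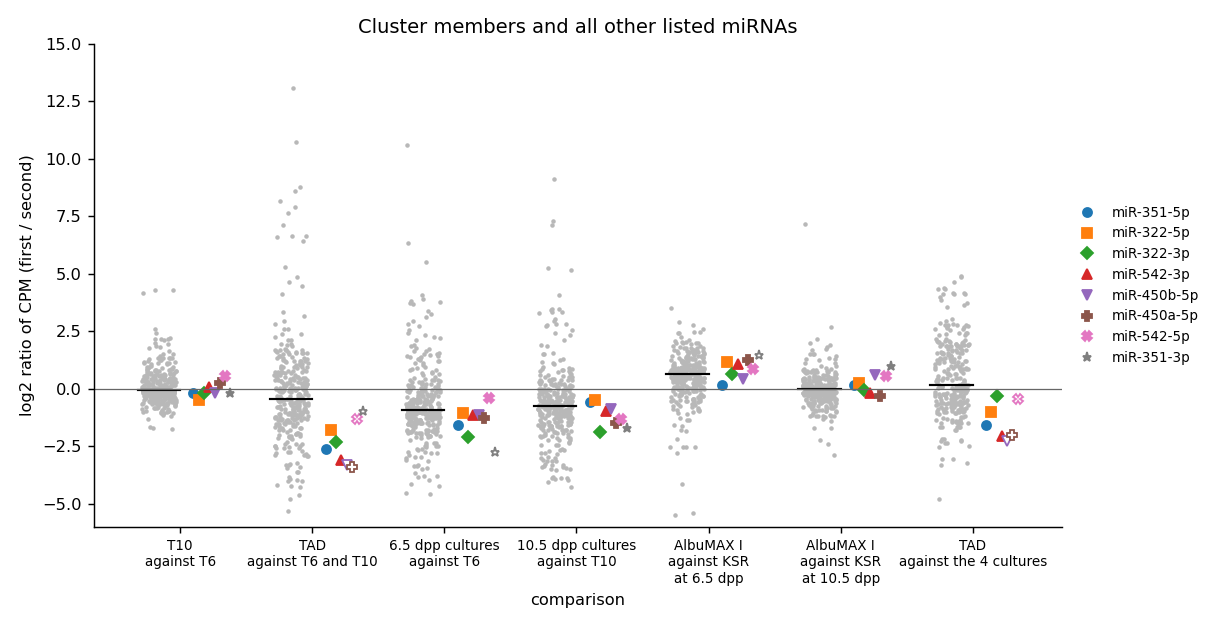
Log2 ratio of CPM in the 7 comparisons, for the members (coloured symbols, open where a value of 0 makes the ratio a bound) and for the other listed miRNAs (grey points), with the median of all listed miRNAs as a black line. In TAD against T6 and T10 every member lies below the median of -0.43, and in the cultures 7 of 8 (6.5 dpp) and 6 of 8 members (10.5 dpp) lie below the median of all.

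TAD was also set against the 4 cultures. The summed level was 2.61-fold lower in TAD (log2 ratio -1.38, -1.48 to -1.29), with -2.06 under TMM scaling and -1.99 in the values as deposited. In this comparison 4 of 8 members, miR-351-5p, miR-542-3p, miR-450a-5p and miR-450b-5p, were lower by 2-fold than in every culture, beside 7.55% of all listed miRNAs, and none was higher, beside 24.5%. The background depends on the scaling, with 25 lower and 81 higher of 331 in CPM, 50 and 61 with median-of-ratios and 68 and 46 with TMM scaling, and 56 and 47 in the values as deposited, where 5 of 8 members were lower under each of these 3. The values were 3.02-fold for miR-351-5p and 4.19-fold for miR-542-3p. With the 0 in TAD set to 5 reads they were 3.99-fold for miR-450a-5p and 4.90-fold for miR-450b-5p. The median log2 ratio was -1.59 over the 7 members with a resolved ratio and 0.18 over all listed miRNAs, where TMM scaling put the latter at -0.48.

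The media were compared at each age. At 6.5 dpp the summed level was 1.45-fold higher in T6-12A than in T6-12K (log2 ratio 0.53, 0.50 to 0.57), and all 8 members were higher. By 2-fold, 4 of 8 were higher, beside 26.6% of all listed miRNAs, and none was lower, beside 5.74%. miR-450a-5p was 2.40-fold higher, miR-322-5p 2.21-fold (log2 ratio 1.15, 1.07 to 1.22) and miR-542-3p 2.08-fold (1.06, 0.88 to 1.23). With its 0 in T6-12K set to 5 reads, miR-351-3p was 2.76-fold higher (1.47, 0.01 to 2.93). miR-351-5p was 1.11-fold higher (0.15, 0.10 to 0.20). Listed miRNAs were also higher as a whole, with a median of 0.64 against 0.96 for the members. Of all 331, 19 were lower by 2-fold and 88 higher, against 44 and 36 with median-of-ratios, 39 and 43 with TMM scaling and 28 and 64 as deposited. Scaled by median-of-ratios, the summed ratio was -0.02, 2 of 8 members were lower, no member was past 2-fold, miR-322-5p was at 0.59 and miR-351-5p at -0.40.

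At 10.5 dpp the summed level was 1.12-fold higher with AlbuMAX I (log2 ratio 0.17, 0.13 to 0.20). No member was past 2-fold in either direction, beside 5.44% of all listed miRNAs higher and 5.44% lower. miR-351-5p was at 0.18 and miR-322-5p at 0.23 (0.16 to 0.30), while miR-542-3p was at -0.19 (-0.36 to -0.03). Medians were 0.21 for the members and -0.02 for all listed miRNAs.

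The ratio of members within a library does not depend on the scaling. Per read of miR-322-5p there were 2.62 (T6) and 3.26 (T10) reads of miR-351-5p uncultured, 2.77 (KSR) and 1.39 (AlbuMAX I) in the 6.5 dpp cultures, 3.10 (KSR) and 3.0 (AlbuMAX I) in the 10.5 dpp cultures and 1.63 in adult testis. T6-12A and TAD stand apart from the other 5 libraries. The difference between the media at 6.5 dpp was 1.99-fold (log2 -0.99, -1.08 to -0.91) and at 10.5 dpp 1.04-fold (-0.05, -0.14 to 0.03). Between TAD and T6 it was 1.61-fold (-0.69, -0.89 to -0.48), and between TAD and T10 2.0-fold (-1.0, -1.21 to -0.79). As a share of the summed cluster, miR-351-5p held 49.8% in T6-12A and 54.5% in TAD, and 61.6% to 68.2% in the other libraries. miR-322-5p held 35.9% in T6-12A and 33.4% in TAD, and 19.6% to 23.5% in the others.

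The share of the strands of a hairpin is likewise free of the scaling. On the miR-322 hairpin, the 5p strand held 73.5% of the reads in T6 (exact binomial interval 72.8 to 74.2) and 69.5% in T10 (68.6 to 70.4). After culture of 6.5 dpp testis it held 81.7% with KSR (80.2 to 83.1) and 86.5% with AlbuMAX I (85.6 to 87.3), and after culture of 10.5 dpp testis 84.3% with KSR (83.0 to 85.6) and 87.0% with AlbuMAX I (85.9 to 88.0). In TAD it held 78.3% (73.9 to 82.3). All 4 cultures lay above all 3 uncultured libraries, although the intervals of T6-12K and TAD overlap. In reads of 5p per read of 3p, T6-12K was 1.61-fold and T6-12A 2.31-fold above T6, and T10-12K was 2.37-fold and T10-12A 2.94-fold above T10. With AlbuMAX I the ratio was above that with KSR at both ages, 1.44-fold at 6.5 dpp (log2 0.52, 0.35 to 0.70) and 1.24-fold at 10.5 dpp (0.31, 0.12 to 0.51).

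Among the 54 hairpins with both strands listed and at least 50 reads in every library, the 5p share was higher in all 4 cultures than in T6 and T10 in 22.2% and lower in 20.4%. A separation of any size was therefore common. These counts leave out TAD and take a gap however small. In the hairpins with a higher share, the lowest culture lay above both T6 and T10 by 0.00188 (miR-125a) to 9.39 percentage points (miR-1981). For miR-322 this gap was 8.16 points. In levels, miR-322-3p was lower than in the uncultured testis of its age by 4.26-fold at 6.5 dpp and 3.72-fold at 10.5 dpp, and miR-322-5p by 2.09-fold and 1.41-fold.

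The other hairpins are more one-sided. On the miR-351 hairpin the 5p strand held at least 99.7% of the reads in every library. On the miR-542 hairpin the 3p strand prevailed, and the 5p strand held 4.53% (3.63 to 5.57) in T6 and 6.03% (5.04 to 7.15) in T10, 8.06% (5.64 to 11.1) with KSR and 7.10% (5.54 to 8.93) with AlbuMAX I in the 6.5 dpp cultures, and 3.64% (2.27 to 5.51) and 5.99% (4.25 to 8.16) in the same order in the 10.5 dpp cultures. These shares do not part the cultures from the uncultured testes. In TAD the hairpin had 26 reads, under the minimum of 50 set for a share.

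**Figure D3:**
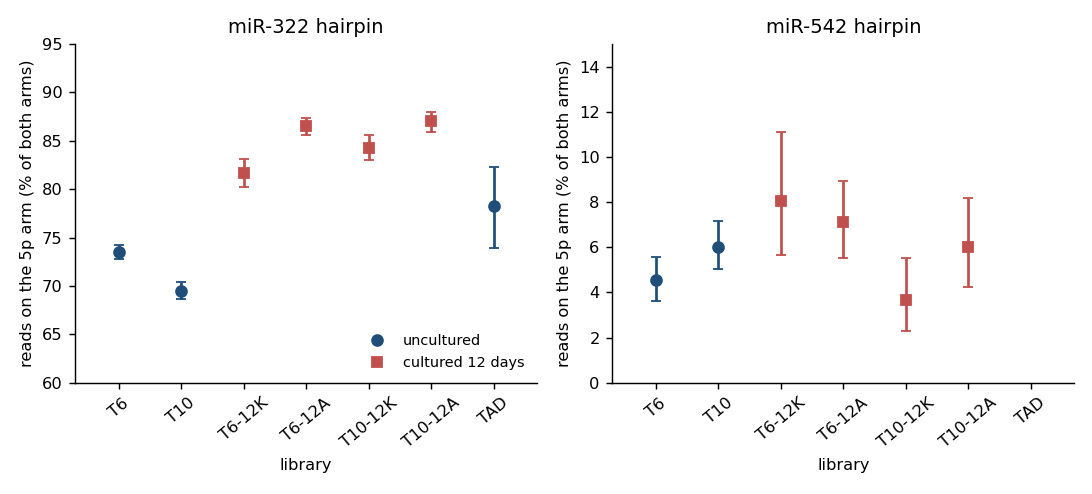
Share of the reads of both strands that lie on the 5p strand (percent, with exact 95% binomial intervals) of the miR-322 and miR-542 hairpins, in uncultured (circles) and cultured (squares) libraries. The axes differ, and that of miR-322 starts at 60%. The miR-322 share is 81.7% to 87.0% in the cultures and 69.5% to 78.3% in the uncultured testes, and the miR-542 share shows no such order.

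The seed relatives printed above were compared with the members. miR-16-5p was at 1598 CPM in T6, 787 on average in the 6.5 dpp cultures, 788 in the 10.5 dpp cultures and 2543 in TAD. In TAD against T6 and T10 the log2 ratio was 0.79 (0.75 to 0.84) for miR-16-5p, 0.51 (0.27 to 0.76) for miR-15a-5p, 1.69 (1.5 to 1.89) for miR-15b-5p, 1.61 (1.40 to 1.82) for miR-195a-5p and 1.07 (0.61 to 1.54) for miR-497a-5p, against -1.80 for miR-322-5p. All 5 relatives were higher in TAD in CPM, and 2 of 5 by 2-fold, beside the 17.2% of all listed miRNAs. In the values as deposited miR-15a-5p was at -0.19 and the other 4 above 0. In unscaled reads, which carry the lower depth of TAD, all 5 were below 0, beside a median of -3.45 over all listed miRNAs. The ratio of miR-322-5p to a relative within a library is free of the scaling.

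Of all reads with the miR-322-5p seed, miR-322-5p held 30.3% (29.8 to 30.8) in T6 and 26.8% in T10, 28.5% with KSR and 29.4% with AlbuMAX I in the 6.5 dpp cultures, 27.7% with KSR and 32.8% (31.9 to 33.7) with AlbuMAX I in the 10.5 dpp cultures, and 6.02% (5.38 to 6.71) in adult testis. The share was between these values in all prepuberal and cultured libraries and far lower in the adult testis. Per read of miR-16-5p, miR-322-5p was 6.49-fold lower in TAD than in T6 (log2 -2.70, -2.87 to -2.53) and 5.54-fold lower than in T10, whereas it differed from the testis of the same age by 1.02-fold to 1.35-fold in the cultures. The seed group as a whole was at 2536 CPM (T6) and 2046 (T10) uncultured, 801 (KSR) and 1720 (AlbuMAX I) in the 6.5 dpp cultures, 1296 (KSR) and 1283 (AlbuMAX I) in the 10.5 dpp cultures and 3132 in adult testis.

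miR-351-5p behaved differently towards its relatives. Of the reads with its seed it held 14% (T6) and 13.3% (T10) uncultured, 7.38% (KSR) and 5.13% (AlbuMAX I) in the 6.5 dpp cultures, 10.9% (KSR) and 9.84% (AlbuMAX I) in the 10.5 dpp cultures and 5.57% in adult testis. Every culture was below the uncultured testis of its age, and T6-12A was as low as TAD. miR-125a-5p itself was lower in TAD by 2.54-fold (log2 ratio -1.35, -1.38 to -1.31) and miR-125b-5p by 1.39-fold (-0.48, -0.55 to -0.41). Per read of miR-125a-5p, miR-351-5p was 2.44-fold lower in TAD than in T6, 1.89-fold lower in T6-12K, 2.88-fold in T6-12A, and against T10 it was 1.18-fold lower with KSR and 1.37-fold lower with AlbuMAX I.

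**Figure D4:**
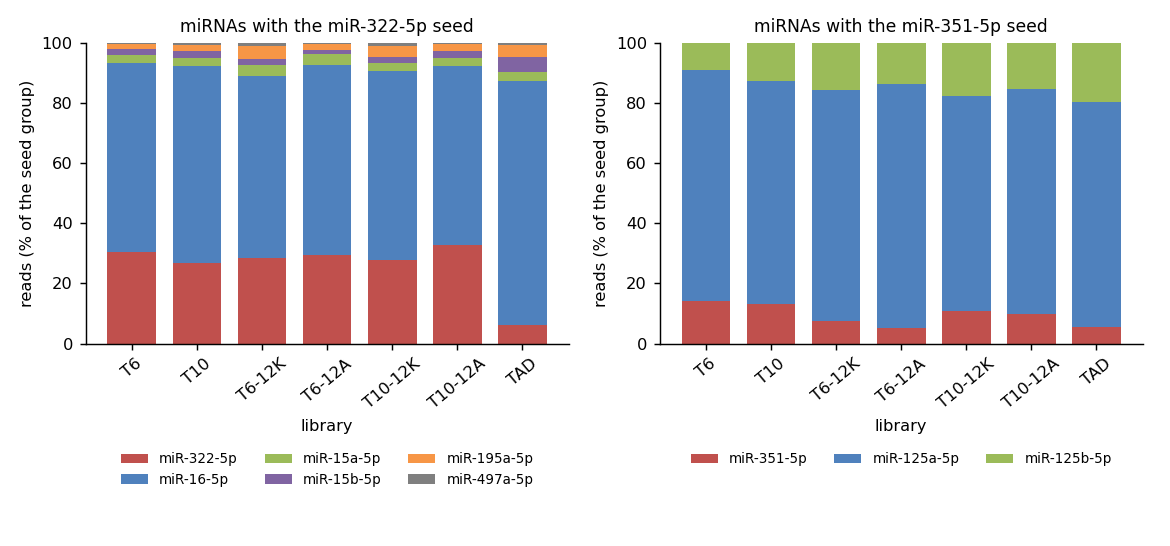
Share of each miRNA (percent, stacked bars) in the reads of all listed miRNAs with the seed of miR-322-5p (left) and of miR-351-5p (right), by library. The cluster members are the bottom segments, which are 26.8% to 32.8% for miR-322-5p outside TAD and 6.02% in TAD, and 14% in T6 to 5.13% in T6-12A for miR-351-5p.

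The cluster was last compared with the other listed miRNAs encoded on the X chromosome. These were split into 26 of a group known for its expression in testis (such as miR-201, miR-465, miR-470, miR-741, miR-871 and miR-881) and 18 others. In TAD against T6 and T10, none of the 26 was lower by 2-fold and 7 (26.9%) were higher, with a median log2 ratio of 1.0 over the 25 with a resolved ratio. Of the 18 others, 7 (38.9%) were lower by 2-fold and 1 (5.56%) was higher, with a median of -0.72. Over all listed miRNAs 30.2% were lower and 17.2% higher, so the share lower among the 18 was near that of all. The members, with 7 of 8 lower and a median of -2.47, had a lower median than either list. In the values as deposited the medians were 0.29 for the 26, -1.42 for the 18 and -3.17 for the members. In unscaled reads they were -2.02, -3.76 and -5.51, beside -3.45 over all listed miRNAs.

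Among those that averaged 10 CPM or more, the 2 highest ratios belonged to miR-201-5p (2.12), at 26.9 CPM (T6), 97.1 CPM (T10) and 270 CPM (TAD), and miR-881-3p (1.63), at 2785, 6046 and 13632 CPM. The lowest were those of miR-652-3p, at 36.4 CPM (T6), 24.4 CPM (T10) and 0 (TAD), with a bound of -3.31,, and of miR-361-5p (-2.53), at 36.7, 34.2 and 6.14 CPM. X-linked miRNAs were thus found on both sides, and the cluster lay with the lowest.

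**Figure D5:**
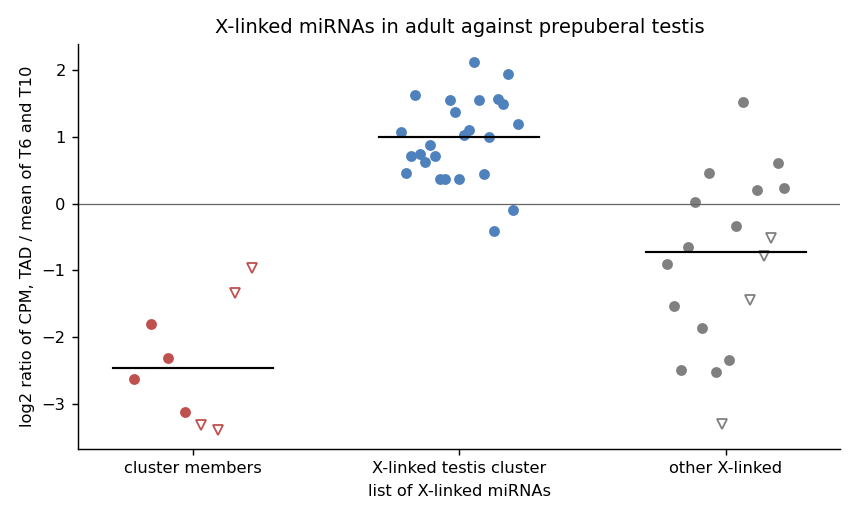
Log2 ratio of CPM in TAD against the mean of T6 and T10 for the cluster members and the 2 lists of other X-linked miRNAs. Points are miRNAs, open triangles are bounds for miRNAs at 0 in TAD, and black lines are medians, at -2.47, 1.0 and -0.72.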

How the data were processed

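Small RNA under 100 bases from CD1 testis was sequenced by Illumina chemistry. The authors trimmed adaptors, checked reads with FastQC, aligned them to mm10 (GRCm38) with Bowtie and then to miRBase 21 and other small RNA databases, and discarded miRNAs with fewer than 50 reads. HTSeq and DESeq are named in the submitters' processing notes, with no role given. The authors deposited 1 signal value per mature miRNA and library, and the 7 tables of single libraries are identical to the series table. Each signal is reads divided by 1 factor per library, whose method is not given in the sources used here.

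The worth of 1 read was estimated as the largest number of which low values are whole multiples. Values under 10000 reads were then whole within 0.02 reads. The steps were tested on simulated data. No count model was fitted, as each condition has 1 library. CPM used the reads on the 331 listed miRNAs. A difference counted as 2-fold only if it held in every pair of libraries. Intervals are 95%, exact binomial for shares and on the log scale for ratios, and cover counting error only. Alternatives were median-of-ratios factors, trimmed-mean (TMM) library sizes, leaving off 30% of M-values and 5% of A-values, the deposited values, unscaled estimated reads (comparable only if all libraries had been sequenced to the same depth), a mean of at least 10 CPM, a sum without the top member, each cultured library left out, and a minimum of 10 reads for strand shares.

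The rule for the members uses names alone, but the cluster was picked, and the lists, markers and tests were chosen, with earlier results of these data known. The miRNAs named are all listed members, all with a member's seed, the 2 highest and 2 lowest other X-linked miRNAs in TAD against T6 and T10 and the 5 most like the summed members, both at a mean of at least 10 CPM, and the markers. miR-465b-5p was left out of the X-linked ranking, since it is at 0 in TAD and its ratio is not resolved. The background over 54 hairpins was added after the strand shares were seen. Of 331 names, 288 matched the RefSeq mature table (GRCm38.p6), 39 were placed by GENCODE symbol and 4 could not be placed. The work used numpy 2.4.6 and scipy 1.17.1 under Python 3.11.15, with tables in pandas 2.3.3 and plots in matplotlib 3.10.9.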

Additional observations from a re-analysis of the deposited data

Results flagged for a closer look

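miR-542-3p was higher with AlbuMAX I than with KSR in the 6.5 dpp cultures (log2 ratio 1.06) and lower in the 10.5 dpp cultures (-0.19), a difference of 1.25 between the ages that stood out because the directions were opposite. The 4 libraries are 1 per condition, and the difference between the ages was not tested against variation between animals. The median over all listed miRNAs was 0.64 at 6.5 dpp and -0.02 at 10.5 dpp, and the part of this shift in the difference was not tested. With median-of-ratios factors both ratios were 0.50 and -0.17, a difference of 0.67. As deposited they were 0.80 and -0.16, where the directions were not opposite beyond counting error. Which member had opposite directions depended on the scaling. For miR-351-5p the ratios at 6.5 and 10.5 dpp were 0.15 and 0.18 in CPM. They were opposite beyond counting error with median-of-ratios (-0.40 and 0.20) and TMM scaling (-0.32 and 0.19) and as deposited (-0.10 and 0.21). miR-450a-5p differed more between the ages (1.58), but its ratio at 10.5 dpp (-0.32, -0.73 to 0.09) was not beyond counting error.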

How the results depend on the processing

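With 1 library per condition no value has a replicate check, and TAD, with 1628770 reads, limits what can be said of members near 3.07 CPM. No paired analysis was possible because every condition has 1 library, numbered 1, so that no compared groups share several replicate numbers. A fit over the 6 prepuberal libraries with age and culture as terms was not made. The summed log2 ratio of T10 to T6 (-0.22) was -0.25 with median-of-ratios factors, -0.46 with the trimmed mean of M-values, -0.14 as deposited and -0.31 without miR-351-5p. That of TAD to T6 and T10 (-2.43) was, in the same order without the trimmed mean, -2.24, -3.13 and -2.14, and -5.47 in unscaled reads, which carry the lower depth of TAD. For the 6.5 dpp cultures (-1.46) it was -0.77, -0.71, -1.27 and -1.26, then -1.81 in unscaled reads, -1.21 without T6-12K and -1.75 without T6-12A. For the 10.5 dpp cultures (-0.68) it was -0.12, then 0.09 with the trimmed mean, which turned the direction, -0.99 as deposited, -0.85 without miR-351-5p, -1.46 in unscaled reads, -0.60 without T10-12K and -0.76 without T10-12A. For AlbuMAX I against KSR at 6.5 dpp (0.53) it was -0.02 with median-of-ratios factors, which turned the direction, 0.06, 0.28, 1.05 without miR-351-5p and 0.65 in unscaled reads. At 10.5 dpp (0.17) it was 0.42 in unscaled reads. For TAD against the 4 cultures (-1.38) it was -1.81, -2.06, -1.99, -1.08 without miR-351-5p and -3.83 in unscaled reads, and -1.54 to -1.25 without single cultures, at -1.54 without T6-12K and -1.25 without T10-12A. The 2-fold call of miR-351-5p in the 6.5 dpp cultures was lost with median-of-ratios factors (-0.87) and the trimmed mean (-0.81). Of members past 2-fold, the 4 lower in the 10.5 dpp cultures became 1 with either of the first 2 scalings and 2 at a mean of at least 10 CPM. The 4 higher with AlbuMAX I at 6.5 dpp became 0 with either and 2 as deposited. At 10.5 dpp 0 became 1 with median-of-ratios factors and as deposited. The cause of these moves was not tested. In unscaled reads, the 2-fold calls over all listed miRNAs were 284 lower and 16 higher in TAD against T6 and T10, 214 and 20 in the 10.5 dpp cultures, 7 and 36 for AlbuMAX I at 10.5 dpp and 181 and 13 in TAD against the cultures. The other 8 summed ratios, 48 counts and the number of usable strand shares were within the spread set for them, the counts within 1.5 times the CPM count.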
